A study of Mus musculus with 3 samples.

Results

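The cholesterol and fatty acid synthesis genes were a list of 37, from the mevalonate and sterol enzymes through their transcriptional regulators to the enzymes that build, desaturate and elongate fatty acids. They were chosen by name, and 36 of the 37 had a value among the 36809 genes present in all 3 tables. The gene identifier of Hmgcs1, the enzyme that condenses the precursor of mevalonate, had no match in the tables, so no value is given for it. The source was male C57BL/6 mice, 11 weeks old, whose brain, liver and testis (taken whole) each gave 1 strand-specific library of polyadenylated RNA. No treatment or mutant allele is named for any of them, and how many animals went into a library is not given in the sources used here. Levels are FPKM, fragments per kilobase of transcript scaled to the size of the library, with the lower and upper confidence bounds that the authors deposited. With 1 library per tissue no difference has a replicate check, so no p-value is given, and the bounds cover estimation within a library only. In whole organs fewer cells of a type and less RNA per cell cannot be told apart.

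Cells build cholesterol from acetyl-CoA by way of mevalonate, farnesyl diphosphate and squalene, and the sterol products are trimmed by a chain of reductases, isomerases and desaturases. The SREBP transcription factors switch these enzymes on when membrane sterol is low, and the INSIG proteins hold SREBP and its escort SCAP in the endoplasmic reticulum when sterol is plentiful. Liver makes sterol and fat for export in lipoproteins, brain makes its own cholesterol because lipoproteins do not cross the blood-brain barrier, and testis uses sterol for steroid hormones and very long polyunsaturated fatty acids for germ cell membranes.

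Start regions are shown for members that hold the core of the element SREBP is known to use, so that the letters searched for can be seen in place. RefSeq windows on GRCm38.p6 were matched by symbol for 30 of the 37 genes, with 40 windows in all, and the 250 bases before each start were searched on both strands. The core of the sterol regulatory element, CACNCCA, was in 8 of these 40 windows (20.0%) and in 15.6% of all 32851 windows of the same length. The NF-Y box CCAAT was in 23 windows (57.5%) against 33.8% of all, the GC box GGGCGG in 28 (70.0%) against 32.7%, and the E-box CACGTG in 6 (15.0%) against 6.02%. CACNCCA and CCAAT can overlap in their shared letters CCA, and GGGCGG and CACGTG overlap neither in full. Printed below are the genes with a value, a single window and the element core, with CACNCCA and CCAAT on either strand in capitals.
Insig1: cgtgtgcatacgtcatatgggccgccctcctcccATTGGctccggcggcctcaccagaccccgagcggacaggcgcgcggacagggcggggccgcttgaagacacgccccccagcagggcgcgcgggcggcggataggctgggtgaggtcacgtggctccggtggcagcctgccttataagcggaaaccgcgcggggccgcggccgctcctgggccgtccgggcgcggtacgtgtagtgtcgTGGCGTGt
Msmo1: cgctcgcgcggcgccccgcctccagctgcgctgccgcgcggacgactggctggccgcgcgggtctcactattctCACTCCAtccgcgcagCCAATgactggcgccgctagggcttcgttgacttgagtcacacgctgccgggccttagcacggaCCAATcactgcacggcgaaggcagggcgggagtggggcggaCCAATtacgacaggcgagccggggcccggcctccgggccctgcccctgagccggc
Srebf2: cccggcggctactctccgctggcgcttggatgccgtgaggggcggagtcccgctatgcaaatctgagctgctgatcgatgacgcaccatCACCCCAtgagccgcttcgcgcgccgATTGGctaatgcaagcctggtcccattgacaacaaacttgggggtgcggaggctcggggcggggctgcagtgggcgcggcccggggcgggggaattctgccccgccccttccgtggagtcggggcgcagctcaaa
Elovl7: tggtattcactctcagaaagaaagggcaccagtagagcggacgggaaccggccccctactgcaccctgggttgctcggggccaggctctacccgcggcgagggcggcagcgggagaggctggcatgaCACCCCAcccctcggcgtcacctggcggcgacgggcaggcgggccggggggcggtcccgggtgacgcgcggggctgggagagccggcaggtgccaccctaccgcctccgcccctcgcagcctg
The windows lie at chr5:28071162-28071411 on the plus strand (Insig1), chr8:64733579-64733828 on the minus strand (Msmo1), chr15:82147019-82147268 on the plus strand (Srebf2) and chr13:108214154-108214403 on the plus strand (Elovl7), each read 5′ to 3′ along the gene. Srebf2 and Msmo1 held the core 26 and 16 bases from the nearest CCAAT box, and Msmo1 had 3 such boxes. Insig1 held its core 8 bases before the start and had 1 CCAAT box, while the Elovl7 window had none. A match of letters is a description and not a measured site. The 4 genes did not share a tissue pattern, as the levels below show: Insig1 was highest in liver, Srebf2 and Elovl7 in brain, and Msmo1 was alike in brain and liver.

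The tissues were checked against marker genes before the levels were compared. The 6 neuronal markers were all at 68.2 FPKM or more in brain, the 6 hepatocyte markers at 1867 or more in liver, and the 6 spermatid markers at 169.9 or more in testis. The 5 Leydig cell markers summed to 441 FPKM in testis, 9.28 in liver and 1.67 in brain. Insl3 gave 299 of the testis sum with a failed estimate whose bound reached 0, and each other marker was at 19.1 or more there. Cyp17a1 gave 8.97 of the liver sum. Adipocyte markers, of a cell type rich in several of the genes described here, summed to 67.4 FPKM in testis, 21.9 in liver and 0.678 in brain over 5 genes. Fabp4 made up most of each sum, with 51.1 FPKM in testis, 21.9 in liver and 0.490 in brain. Adipoq, which defines that cell type, had 12.6 FPKM in testis, 0.0121 in brain, and was listed at 0 in liver, and Plin1 and Lep were listed at 0 in brain and liver. What adipocyte RNA adds to the testis values was not tested. Albumin RNA in brain and in testis stood at 0.0178% and 0.0181% of its liver level, and Tnp1 RNA in brain at 0.0940% of its testis level. Fragments implied by the width of the bounds came to about 31800000 in brain, 86300000 in liver and 40900000 in testis. Their median per member was 547, 4419 and 238. They count fragments only where counting alone sets the width, which did not hold for every gene. In brain Insig2 at 62.6 FPKM gave 86.0, and Insig1 at 17.9 FPKM gave 3330, with longest transcripts of 2697 bp each. The figures are thus not sequencing depths.

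Liver held the most RNA of these genes and testis the least. Of the 36 genes 27 had their highest level in liver, 24 of them with bounds clear of the next tissue, 7 were highest in brain and 2 in testis. The lowest level fell in testis for 26 genes, in brain for 7 and in liver for 3. The median level of a member was 21.3 FPKM in liver, against 10.4 in brain and 4.10 in testis. Together they took 0.532% of the protein-coding FPKM of liver, 0.189% of that of brain and 0.0795% of that of testis. Scd1 alone carried much of the liver sum, and without it the liver share was 0.265%. Rank within a library does not depend on how libraries are scaled to each other. By rank among protein-coding genes the median member stood at percentile 91.2 in liver, 76.2 in brain and 59.5 in testis. Rank depends on the levels of the other genes of a library too. Mvk stood at percentile 77.0 in liver with 5.22 FPKM and at 64.2 in brain with 5.33. Part of the difference in rank can therefore arise without a difference in level.

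**Figure D1:**
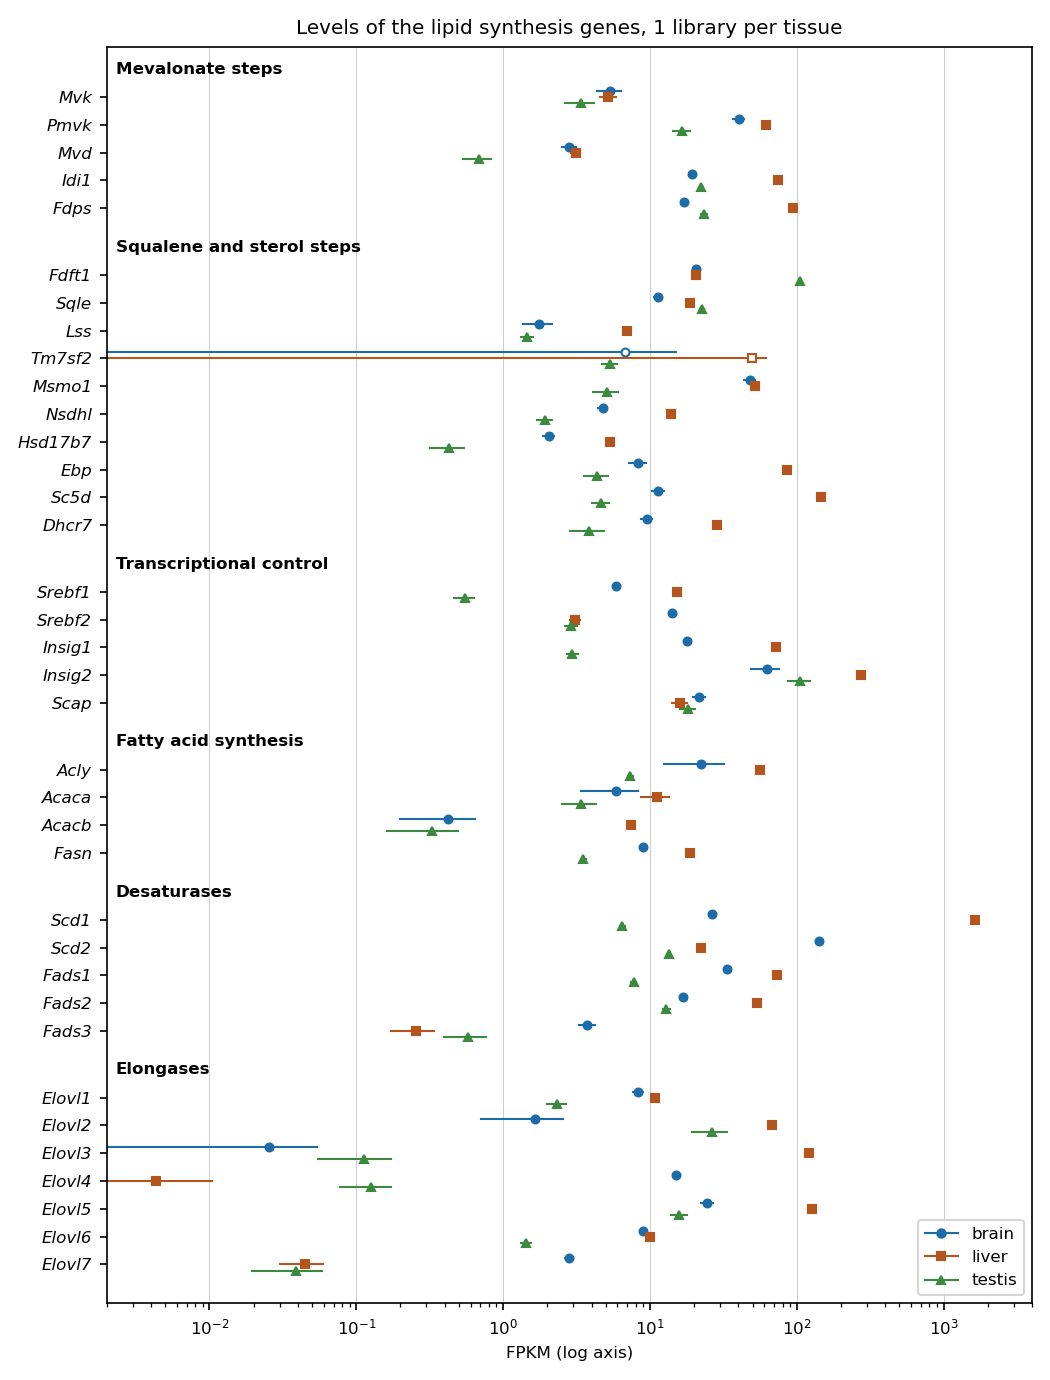
FPKM of the 36 genes in brain (circles), liver (squares) and testis (triangles) on a log axis, with lines for the authors' lower and upper bounds. Open symbols are estimates not marked OK, and lines that meet the left edge reach down to 0. Liver is rightmost for 27 genes and testis leftmost for 26.

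A gene was called higher or lower between a pair of tissues when it differed at least 4-fold on log2(FPKM + 1) and the bounds did not overlap. Brain against liver gave 2 members higher and 9 lower, where the rule called 9.15% of all genes higher and 2.79% lower. Testis against liver gave 1 higher and 16 lower, with 15.2% and 3.82% of all genes called in those directions. Testis against brain gave 2 higher and 6 lower, against 11.0% and 7.19% of all genes. The median difference of the members was -1.17 for brain minus liver, -1.96 for testis minus liver and -1.11 for testis minus brain, where the medians over all genes were 0.01, 0.02 and 0.00. Members below liver, 9 and 16 of 36, made a larger share than among all genes. The share lower in testis than in brain stood nearer to the background. All 36 members reached 1 FPKM in at least 1 library. Of the 19960 genes that did, 16.9% were called higher and 5.15% lower in brain against liver. The shares were 28.1% and 7.04% for testis against liver, and 20.3% and 13.3% for testis against brain. Members called lower made up 25.0%, 44.4% and 16.7% in that order. Medians of the 19960 genes were 0.58, 0.88 and 0.06. The 3 comparisons share libraries, so they do not support each other.

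These counts moved with the scaling. Over genes at 1 FPKM or more in any library, median-ratio scaling shifted the median difference by -0.56 for brain minus liver, 0.04 for testis minus brain and -0.67 for testis minus liver. Scaling to the protein-coding sum shifted it by 0.62, -0.49 and 0.02, and scaling to the sum of all FPKM, which in brain came to 14084700 against 345290 for protein-coding genes alone, by -1.66, 1.90 and -0.29. Brain against liver then had 1 member higher and 19 lower with the median ratio (6.05% and 4.49% of all genes), 5 and 6 with the protein-coding sum (14.5% and 2.11%), and 1 and 30 with the FPKM sum (2.53% and 17.1%). Testis against brain had 2 and 4 (10.6% and 6.27% of all genes), 1 and 13 (9.11% and 10.5%), and 8 and 0 (25.6% and 1.54%) in the same order, so the direction between these organs turned with the FPKM sum. Testis against liver had 0 and 26 (11.4% and 6.29%), 1 and 14 (14.9% and 3.51%), and 0 and 25 (15.2% and 5.85%). Calls that held under all 3 scalings numbered 7 of 11, 1 of 8 and 14 of 17 for brain against liver, testis against brain and testis against liver. Lost under 1 scaling or more were Fdps, Insig2, Scd2 and Elovl5 in the first, all but Elovl2 in the second, and Fdft1, Hsd17b7 and Fasn in the last.

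Changing the pseudocount or the fold minimum cannot turn the sign of a difference, so only the counts could move. With a pseudocount of 0.1, brain against liver had 5 members higher and 10 lower, where 16.7% and 4.13% of all genes were called, and with 0.01 it had 5 and 10 (21.5% and 5.04%). Testis against brain had 2 higher and 12 lower with 0.1 (16.2% and 11.7% of all genes) and 2 and 13 with 0.01 (18.8% and 13.7%). Testis against liver had 1 and 20 with 0.1 (23.8% and 5.85%) and 2 and 21 with 0.01 (28.4% and 6.97%). A 2-fold minimum gave 5 and 19 for brain against liver (19.3% and 4.85%), 2 and 19 for testis against brain (17.6% and 13.9%) and 1 and 26 for testis against liver (24.5% and 6.97%).

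**Figure D2:**
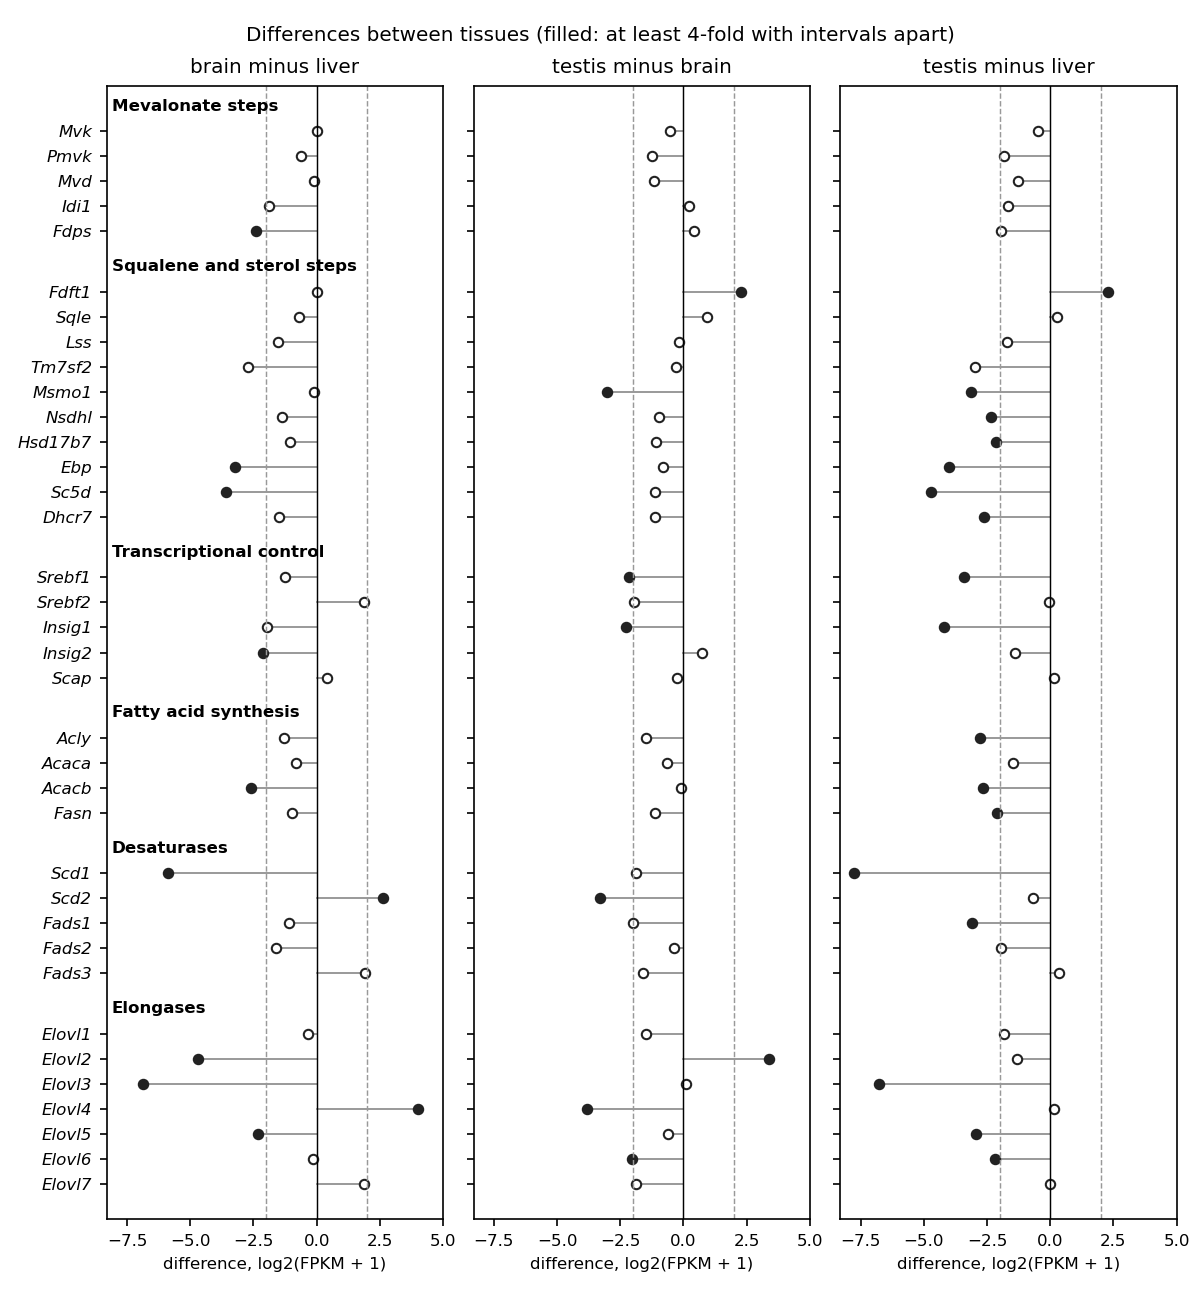
Difference of each gene on log2(FPKM + 1) for brain minus liver, testis minus brain and testis minus liver, as deposited. Filled points differ at least 4-fold with bounds apart, and dashed lines mark 4-fold. Most filled points lie on the liver side, and Fdft1 and Elovl2 are the filled points on the testis side.

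The mevalonate enzymes split into flat and liver-high genes. Mvk, mevalonate kinase, was at 5.33 FPKM in brain (bounds 4.33 to 6.32), 5.22 in liver (4.60 to 5.84) and 3.39 in testis (2.63 to 4.15), so brain and liver overlapped and testis lay below both. Mvd, which makes isopentenyl diphosphate, was likewise alike in brain (2.82) and liver (3.13) and low in testis, at 0.681 FPKM (0.532 to 0.831). Pmvk, which acts between these enzymes, was at 62.0 FPKM (59.2 to 64.8) in liver, 40.4 (36.9 to 43.8) in brain and 16.5 (14.4 to 18.7) in testis, with no bounds overlapping. Idi1, the isopentenyl diphosphate isomerase, was at 74.6 FPKM in liver, 22.4 in testis and 19.3 in brain, and Fdps, which joins the isoprenoid units into farnesyl diphosphate, at 94.2, 23.5 and 17.2 in the same order. For these last genes liver stood apart, and testis was slightly above brain, an order that turned with the protein-coding sum. Of the 5 genes only Fdps passed the call, lower in brain than in liver (2.79% of all genes), at -2.39. This call was lost with the protein-coding sum, at -1.59.

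Copies of these genes elsewhere in the genome limit several values. Of the 76-base windows of the longest Fdps transcript 80.2% also occur in an annotated transcript of another gene, and the share was 47.2% for Acaca, 20.6% for Idi1 and 5.91% for Fdft1. It was 3.22% or less for each of the other members. Processed pseudogenes among these copies had values of their own in the tables. In brain, liver and testis respectively, Gm3571, a copy of Fdps, was listed at 23.5, 135 and 33.8 FPKM. Gm13502, a copy of Idi1, was listed at 28.3, 132 and 59.9, and Gm6781, a copy of Fdft1, at 22.0, 24.1 and 103. Each of these copies was highest in the tissue where its parent gene was highest. How reads were divided between parent and copy is not given in the sources used here, so the levels of these parents are uncertain. Some members also overlap another gene, and without a stated use of strand in counting reads in the overlap cannot be assigned. Fdft1 shares 769 bp with Ctsb on the opposite strand, which was at 6.40 FPKM in testis against 59.3 in brain. Lss shares 9609 bp with the antisense gene 4930483K19Rik, which was listed at 3.40 FPKM in testis and at 0 elsewhere, and Tm7sf2 shares 532 bp with Vps51 on its own strand.

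Squalene formation was the step at which testis led. Fdft1 (squalene synthase, ENSMUSG00000021273, mm9 chromosome 14, 63763990 to 63796630), which commits farnesyl diphosphate to sterol synthesis, was at 105 FPKM in testis (103 to 106), 20.5 in brain (19.9 to 21.2) and 20.5 in liver (20.1 to 21.0). Brain and liver could not be told apart, and testis was 5.10-fold above each. The difference was 2.30 against either organ. It stayed positive under the 3 scalings, but fell to 1.60 against brain with the protein-coding sum and to 1.25 and 1.71 against liver with the median ratio and the FPKM sum, short of 4-fold. By rank Fdft1 stood at percentile 94.9 of protein-coding genes in testis, 86.5 in brain and 90.9 in liver. Sqle, the epoxidase that follows and is a rate-limiting enzyme of the pathway, was at 22.5 FPKM in testis (21.8 to 23.3), 18.8 in liver (18.3 to 19.3) and 11.3 in brain (10.7 to 11.9). Its bounds were apart in all 3 tissues, without reaching 4-fold, and testis came below liver with the median ratio and with the FPKM sum.

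Among the 8 listed genes past squalene epoxide testis had the lowest value throughout, although Tm7sf2 was too uncertain to rank and Lss overlapped between brain and testis. With the FPKM sum testis came above brain for all of them but Msmo1. Cyp51, the sterol demethylase that follows Lss and is not a member, broke this order, with 33.6 FPKM in liver (33.2 to 34.1), 22.3 in testis (21.8 to 22.9) and 12.9 in brain (12.5 to 13.3); it is named after its values were seen. Lss, which closes the sterol ring, was at 7.02 FPKM in liver (6.75 to 7.29), 1.76 in brain (1.36 to 2.16) and 1.46 in testis (1.33 to 1.59). Msmo1, which removes the methyl groups at one carbon of the ring together with Nsdhl and Hsd17b7, was at 48.1 FPKM in brain (43.9 to 52.3), 51.8 in liver (48.9 to 54.7) and 5.08 in testis (4.08 to 6.07). It was the only sterol enzyme called lower in testis than in brain, and it was called lower in testis than in liver. Its partners were lower and more graded, Nsdhl at 4.76, 13.8 and 1.92 FPKM in brain, liver and testis and Hsd17b7 at 2.05, 5.38 and 0.429. In testis these enzymes lay far below Fdft1 of the same library, and FPKM, being per length, allows that comparison between genes.

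Sc5d and Ebp, late in the chain, had the largest liver excess of the sterol genes over both other organs. Sc5d, the sterol desaturase, was at 147 FPKM in liver (145 to 150), 11.4 in brain (10.3 to 12.4) and 4.62 in testis (4.01 to 5.23), which put liver 13.0-fold above brain and 31.9-fold above testis. Ebp, the isomerase acting just before it, was at 85.8 FPKM in liver (83.5 to 88.1), 8.32 in brain (7.22 to 9.42) and 4.36 in testis (3.57 to 5.15). Dhcr7, the final reductase, was at 28.8, 9.51 and 3.84 in the same order and was called only between testis and liver. The calls for Sc5d and Ebp held under all 3 scalings. Tm7sf2, a sterol reductase, was listed at 49.4 FPKM in liver with a failed estimate, 6.75 in brain with too little data and 5.34 in testis. Its bounds reached down to 0 in liver and brain, so it was not called. Of the 10 squalene and sterol genes, brain against liver called none higher and 2 lower (9.15% and 2.79% of all genes). Testis against liver called 1 higher and 6 lower (15.2% and 3.82%), and testis against brain 1 higher and 1 lower (11.0% and 7.19%). The medians were -1.43, -2.48 and -0.89 in that order.

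**Figure D3:**
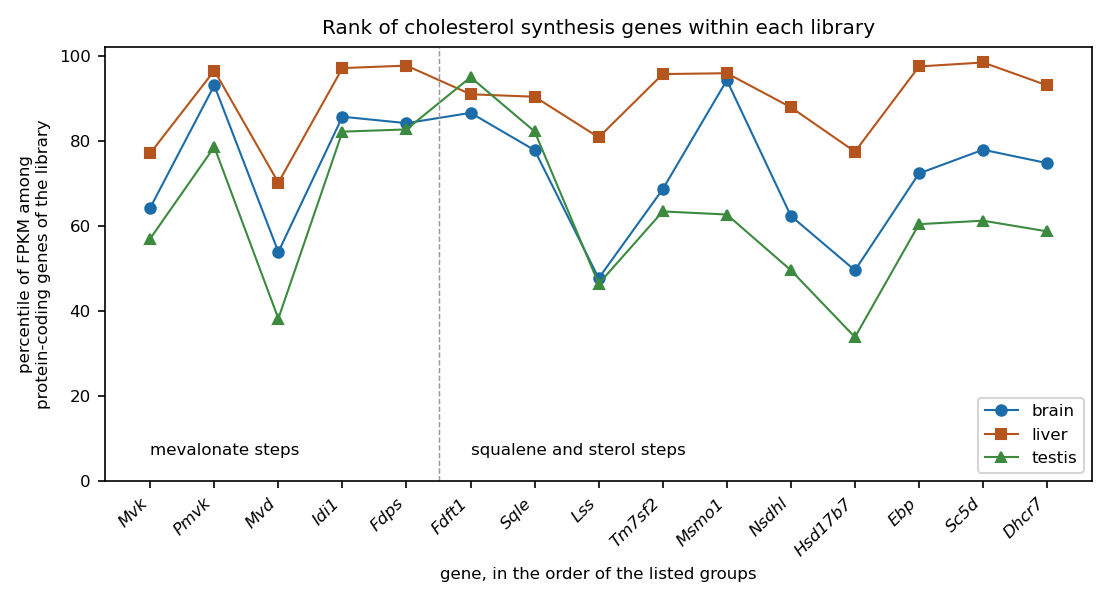
Percentile of each cholesterol synthesis gene among the protein-coding genes of its own library, with genes in the order of the listed groups and lines joining the values of a tissue. Testis is the highest library at Fdft1 only, where it stands at 94.9, and falls to 46.3 at Lss and 33.8 at Hsd17b7.

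The regulators differed in which family member prevailed. Srebf1, whose products drive fatty acid synthesis and, for the longer isoform, sterol genes too, was at 15.3 FPKM in liver (15.0 to 15.6), 5.90 in brain (5.61 to 6.18) and 0.551 in testis (0.466 to 0.636). Srebf2, the main activator of cholesterol genes, was at 14.0 in brain (13.4 to 14.7), 3.09 in liver (2.87 to 3.31) and 2.91 in testis (2.62 to 3.19), with liver and testis overlapping. Its brain excess over liver, 1.88, just missed the 4-fold minimum, was called with pseudocounts of 0.1 and 0.01 and with the protein-coding sum (2.60), and turned to -1.02 with the FPKM sum. Srebf2 thus made up 70.4% of the pair in brain (68.4 to 72.4, from the bounds), 16.8% in liver (15.5 to 18.1) and 84.1% in testis (80.5 to 87.2). Shares within a library do not change with scaling. Scap, the escort of both, was the flattest gene here, at 21.7 FPKM in brain (19.7 to 23.7), 16.1 in liver (14.1 to 18.0) and 18.1 in testis (15.9 to 20.2), and testis overlapped each of the others. Gene-level values do not separate the isoforms of Srebf1, nor a germ cell form of Srebf2 known from the literature.

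Of the sterol sensors, Insig1, itself an SREBP target, varied most. It was at 72.6 FPKM in liver (71.7 to 73.4), 17.9 in brain (17.3 to 18.6) and 2.96 in testis (2.71 to 3.21), and was called lower in testis than in both other organs. The call against brain was lost with the FPKM sum, where the difference became 0.15. Insig2, which is known to have a liver transcript of its own, was at 275 FPKM in liver (256 to 293), 105 in testis (87.6 to 122) and 62.6 in brain (49.1 to 76.1). Insig2 was the larger of the pair in each library, with 77.7% in brain, 79.1% in liver and 97.3% in testis, and bounds of brain and liver overlapped. The ratio of Insig2 to Insig1 was 3.49, 3.78 and 35.4 in that order, so testis stood apart from both other organs. Implied fragments ran the other way in each library. For Insig2 and Insig1 they were 86.0 and 3330 in brain, 908 and 28856 in liver, and 147 and 567 in testis. The cause was not tested. Of the 5 regulators none was called higher in a comparison. Insig2 was called lower in brain than in liver (2.79% of all genes), except with the protein-coding sum (-1.29). Srebf1 and Insig1 were called lower in testis than in liver (3.82%) and in brain (7.19%).

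Fatty acid synthesis genes had their highest value in liver, as deposited and under each scaling. With the protein-coding sum, however, brain minus liver was only -0.08 for Acaca and -0.22 for Fasn. Bounds of Acaca in brain were wide, at 3.38 to 8.35 FPKM as deposited, so that order is uncertain for Acaca. Acly, which supplies acetyl-CoA from citrate, was at 55.9 FPKM in liver (55.3 to 56.5), 22.2 in brain (12.5 to 31.8) and 7.37 in testis (7.04 to 7.69). Fasn, the synthase that builds palmitate, was at 18.7 FPKM in liver (18.5 to 18.9), 8.94 in brain (8.72 to 9.16) and 3.52 in testis (3.38 to 3.65), with narrow bounds that did not overlap. The carboxylase Acaca, which feeds the synthase with malonyl-CoA, was at 11.1, 5.86 and 3.39 in that order, and brain and testis overlapped. Acacb, the mitochondrial form whose product restrains fatty acid oxidation, was at 7.49 FPKM in liver (7.12 to 7.85), 0.420 in brain (0.200 to 0.639) and 0.327 in testis (0.161 to 0.493). Acacb made up 40.2% of the pair in liver, 6.68% in brain and 8.81% in testis, with the bounds of brain and testis overlapping. Acly, Acacb and Fasn, 3 of the 4 genes, were called lower in testis than in liver (3.82% of all genes). Acacb was also called lower in brain than in liver (2.79%). The call for Fasn was lost with the protein-coding sum, at -1.99. None was called between testis and brain.

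The stearoyl-CoA desaturases, which turn saturated into monounsaturated fatty acids, held the most abundant member of the list in liver (Scd1) and in brain (Scd2). Scd1 (ENSMUSG00000037071, mm9 chromosome 19, 44468941 to 44482199) was at 1634 FPKM in liver (1631 to 1637), 26.5 in brain (25.9 to 27.0) and 6.49 in testis (6.22 to 6.75). Liver was 61.8-fold above brain and 252-fold above testis. Scd2, which lies 87586 bp away on the same chromosome, was at 142 FPKM in brain (141 to 143), 22.1 in liver (21.8 to 22.5) and 13.4 in testis (13.0 to 13.7). Scd1 therefore formed 98.7% of the pair in liver, 15.7% in brain and 32.6% in testis. Brain stood above liver in Scd2 by 2.63 as deposited, by 1.50 with the median ratio and by 3.44 with the protein-coding sum, and below it by -0.71 with the FPKM sum. These genes share 77 exact 76-base windows. With Scd1 at 1634 FPKM in liver, what reads from those windows add to the liver value of Scd2 was not tested. Their relative Scd3 was listed at 92.5 FPKM in liver with a failed estimate and is left aside.

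The Fads genes introduce double bonds into polyunsaturated fatty acids and lie together on chromosome 19, with 4492 bp between Fads3 and Fads2 and 81384 bp between Fads2 and Fads1. Fads1 was at 72.9 FPKM in liver (72.1 to 73.6), 33.7 in brain (32.9 to 34.4) and 7.73 in testis (7.38 to 8.08). Fads2, the first enzyme of that route, was at 53.2, 16.9 and 12.9 in the same order. Fads3, whose role is in sphingolipid desaturation, ran the other way, at 3.74 FPKM in brain (3.28 to 4.20), 0.578 in testis (0.396 to 0.759) and 0.255 in liver (0.173 to 0.337). Fads2 exceeded Fads1 in testis only, with 60.9% of the family against 36.4% (58.0 to 63.7 and 33.9 to 39.1). In brain and liver Fads1 led with 62.0% and 57.7%. Fads1 and Fads2 thus had the same tissue order, and Fads3, next to Fads2, had another. Of the 5 desaturases, Fads1 and Scd1 were called lower in testis than in liver (3.82% of all genes). Scd2 was called lower in testis than in brain (7.19%). Between brain and liver Scd2 was called higher (9.15%) and Scd1 lower (2.79%).

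The elongases lengthen fatty acids, each with its own preferred chain, and were the most tissue-divided family. Elovl2, which extends the long polyunsaturated chains that lead to docosahexaenoic acid, was at 67.3 FPKM in liver (66.4 to 68.2), 26.4 in testis (19.2 to 33.6) and 1.64 in brain (0.707 to 2.57). Testis was 16.1-fold above brain, with a range of 7.49 to 47.5 from the bounds, and this was the only call between testis and brain that held under all 3 scalings. Elovl3, which acts on saturated chains, was at 120 FPKM in liver (119 to 122), 0.114 in testis (0.0548 to 0.173) and 0.0254 in brain, where its bound reached 0. Elovl4, needed for very long chains in retina, brain and skin, was at 15.0 FPKM in brain (14.5 to 15.5), 0.125 in testis (0.0780 to 0.173) and 0.00431 in liver, again with a bound at 0. Elovl7 was at 2.82 FPKM in brain (2.65 to 2.99), 0.0446 in liver (0.0301 to 0.0591) and 0.0390 in testis (0.0195 to 0.0585), and liver and testis overlapped. Its difference of 1.87 from liver missed 4-fold on this scale, which understates changes of low genes, and was called with a pseudocount of 0.1.

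The remaining elongases were present in every organ. Elovl5, which extends polyunsaturated chains of medium length, was at 128 FPKM in liver (124 to 132), 24.6 in brain (22.4 to 26.8) and 15.9 in testis (13.8 to 17.9). Elovl6, which takes palmitate to stearate, was at 10.0 in liver, 8.99 in brain and 1.43 in testis, and Elovl1, which serves very long saturated chains, at 10.9, 8.28 and 2.33. Within the family Elovl5 held 40.1% in brain, followed by Elovl4 with 24.5%. In liver Elovl5 held 38.0%, Elovl3 35.8% and Elovl2 20.0%. In testis Elovl2 held 57.0% (46.0 to 66.0) and Elovl5 34.3% (26.5 to 44.2), so the polyunsaturated chain enzymes led there, and Elovl3, Elovl4 and Elovl7 each stayed at 0.271% or less. Of the 7 elongases, brain against liver called 1 higher and 3 lower (9.15% and 2.79% of all genes). Testis against liver called none higher and 3 lower (15.2% and 3.82%), and testis against brain 1 higher and 2 lower (11.0% and 7.19%).

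**Figure D4:**
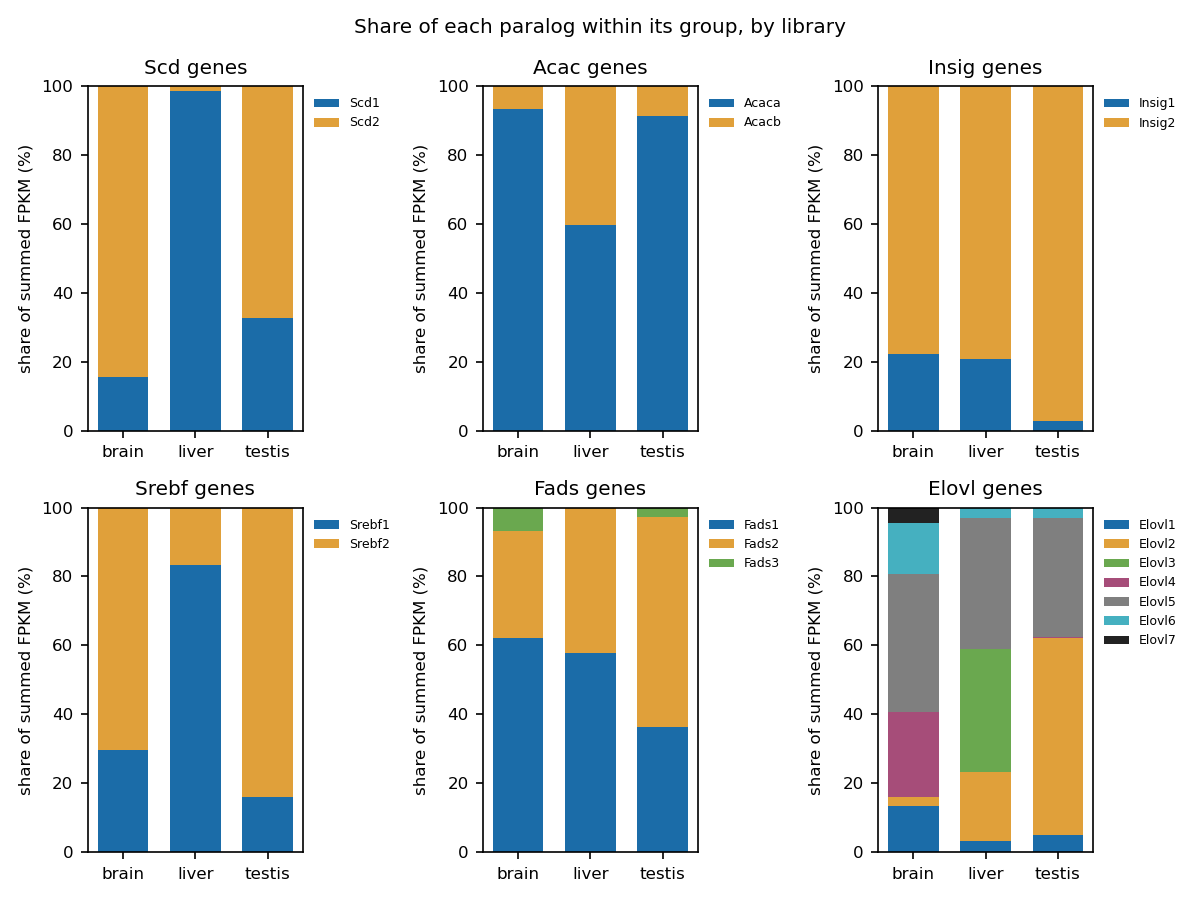
Share of each paralog in the summed FPKM of its group (percent, bars stacked to 100) in brain, liver and testis, for 6 groups. Scd1 fills 98.7% of its bar in liver and Scd2 84.3% in brain, and Elovl2 takes 57.0% of the elongase bar in testis.

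Other genes of the pathway were taken as a list of 27, all with a value. Brain against liver called 1 of them higher and 10 lower (9.15% and 2.79% of all genes). Testis against liver called none higher and 12 lower (15.2% and 3.82%), and testis against brain 1 higher and 3 lower (11.0% and 7.19%). The 3 lower were 11.1% of the list, beside 13.3% of genes at 1 FPKM or more in any library. Medians of the list were -1.69, -1.73 and -0.12 in that order. The gene higher in brain than in liver was Mid1ip1, an activator of the acetyl-CoA carboxylases, at 109 FPKM against 23.2. Me1, the malic enzyme that makes NADPH for lipid synthesis, was the gene higher in testis than in brain, at 78.3 FPKM against 14.0, with 59.6 in liver.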

How the data were processed

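Per the file headers, the authors deposited 1 FPKM value per gene, its confidence bounds (level not named) and a status of the estimate. Tools were Cufflinks 2.0.0, TopHat 1.4.0 and Bowtie 0.12.5 with the mm9 build, per the submitters' processing notes. Sources used here do not give the annotation, the filters or the use of strand in counting. Reads had 76 cycles, and samples had about 114000000 reads on average, per the labels' protocols. The tables held 36824, 36823 and 36824 entries for brain, liver and testis.

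Values at several loci of an identifier (12 identifiers) were summed. Symbols and classes came from GENCODE M21 by identifier only, and 31837 identifiers had a symbol. Gene coordinates on mm9 were taken from the tables, and starts were made 1-based. Implied fragments are the square of 2 times FPKM over the upper half-width. Differences used log2(FPKM + 1) on FPKM as deposited, and the calls were checked on simulated data. All computing was in Python 3.11.15 with pandas 2.3.3. Named were all members, and some other genes of the pathway among those called. Soat1, Cyp51 and Hacd1 to Hacd3 were named after their values were seen. Some items are not reported here. The genes and lists were chosen with earlier results of these data known. Alternatives were other pseudocounts, scalings, fold minimums and filters, and calls without the bounds.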

Additional observations from a re-analysis of the deposited data

How the results depend on the processing

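No paired analysis was possible because each tissue had 1 library, and no library could be left out. For brain against liver the 2 members higher became 5 with pseudocounts of 0.1 and 0.01, with the protein-coding sum and with a 2-fold minimum, and 1 with the median ratio and with the FPKM sum. The 9 lower became 19 with the median ratio and with a 2-fold minimum, and 30 with the FPKM sum. For testis against brain the 2 higher became 1 with the protein-coding sum and 8 with the FPKM sum, and the 6 lower became 12 and 13 with pseudocounts of 0.1 and 0.01, 13 with the protein-coding sum, 19 with a 2-fold minimum and 0 with the FPKM sum. For testis against liver the 1 higher became 2 with a pseudocount of 0.01 and 0 with the median ratio and with the FPKM sum, and the 16 lower became 26 with the median ratio and with a 2-fold minimum and 25 with the FPKM sum. Calling by size alone left each of these counts within 1.5 times. Keeping only estimates marked OK and filtering at 1 FPKM could not move them. Tm7sf2, the only member with estimates not marked OK, was not called, and every member reached 1 FPKM in a library. Called differences that changed sign did so with the FPKM sum: Scd2 to -0.71 for brain minus liver, and Insig1 to 0.15 and Elovl6 to 0.092 for testis minus brain. The shares of all genes called with each pseudocount, scaling and fold minimum are given with the counts in the Results. Each scaling multiplies a whole library by a constant, a smaller pseudocount widens differences of low genes, and a lower minimum admits smaller ones. Median ranks among all genes of 200 bp or longer were percentile 81.1 in brain, 91.9 in liver and 66.5 in testis. For Tm7sf2 and Elovl3 in brain the half-width of the bounds exceeded the value. The bounds of Elovl2, Acacb, Acly and Acaca in brain were wide too. Elovl3 in brain and Elovl4 in liver had very few implied fragments.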

Other observations

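Sterol esterification, lipogenic control and elongation genes among the other genes of the pathway also differed in level by organ. Soat1, a cholesterol acyltransferase of many cell types, was highest in testis (3.87 FPKM), with 1.73 in brain and 0.338 in liver. Soat2, the enterocyte and hepatocyte form, was highest in liver (3.79 FPKM), with 0.0131 in brain and 0.00636 in testis. Mlxipl, a glucose-responsive activator of lipogenic genes, was at 49.2 FPKM in liver (46.2 to 52.2) and 1.34 in testis, and Thrsp, a thyroid hormone-responsive lipogenic gene, was at 251, 16.4 and 3.77 FPKM in liver, brain and testis. Of the enzymes that complete a round of elongation, Tecr was highest in brain (39.0 FPKM), with 10.9 in liver and 4.65 in testis, while Hsd17b12 was highest in liver (57.9), with 32.6 in brain and 5.09 in testis. The dehydratases of the same cycle differed among themselves. Hacd1 was highest in testis (8.85 FPKM, 7.41 to 10.3), with 2.41 in brain and 1.49 in liver, and so was Hacd2 (5.67), with 3.52 in brain and 3.15 in liver. Hacd3 was highest in brain (44.5), with 30.4 in liver and 12.3 in testis. These values have no replicate check.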
